A study of Oryza sativa with 7 samples.

Results

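The interval described here lies between 37.5 and 39.5 Mb of rice chromosome 1 (MSU version 7 coordinates) and contains the drought grain yield locus qDTY1.1, known from the cultivar N22, together with the semi-dwarf locus of the cultivar IR64. Its members were all 100 bp bins with a start position in this 2 Mb, taken by position, with no measured value in the rule itself. At least 1 methylated cytosine (mC) was listed in 9623 of its 20000 bins, out of 2273435 such bins in the genome and 239230 in the rest of chromosome 1. Whole genome bisulphite sequencing was carried out on seedlings of the drought-tolerant cultivar N22, the salinity-tolerant cultivar Pokkali and the stress-sensitive cultivar IR64. The 7 libraries were IR64 control, IR64 desiccation, IR64 salinity, N22 control, N22 desiccation, Pokkali control and Pokkali salinity. Control seedlings were kept in reverse osmosis water, desiccated seedlings on dry filter paper and salinity-treated seedlings in 200 mM salt. The control DNA was pooled from 3 biological replicates, and every group was 1 library, so that each difference below compares libraries and has no replicate check.

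Plant DNA is methylated in the CG, CHG and CHH contexts, where H is A, C or T. CG methylation is copied at replication by MET1, CHG methylation is kept by the chromomethylase CMT3, and CHH methylation is renewed by DRM2 through small RNAs (RNA-directed DNA methylation) or by CMT2. Bodies of expressed genes carry mainly CG methylation, and transposable elements carry all 3 contexts. qDTY1.1 was mapped as a locus for grain yield under drought, and the semi-dwarf gene SD1 beside it encodes gibberellin 20-oxidase 2, an enzyme of gibberellin synthesis that is defective in semi-dwarf cultivars such as IR64.

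The files listed only cytosines called methylated at a depth of at least 5 reads, and the status of every other cytosine was unknown. In the interval the IR64 libraries listed 62735 mCs (control), 68019 (desiccation) and 64439 (salinity). The N22 libraries listed 70367 (control) and 63952 (desiccation), and the Pokkali libraries 72195 (control) and 63486 (salinity). Their mean depth ranged from 13.9 reads in IR64 salinity to 18.2 in Pokkali control, and the genome-wide totals ranged from 14843198 to 18209800 mCs. N22 control thus listed 12.2% more mCs than IR64 control in the interval, against 31.6% more in the rest of chromosome 1, and Pokkali control listed 15.1% more, against 18.8%. The excess of N22 control lay in CG (16.8% more) and CHG (27.6% more), while its CHH number was 1.70% lower. The paper gives different calling error rates for the control libraries. At a common rate of 1%, 7.25% of the mCs of IR64 control were lost. In Pokkali control 2.92% were lost, and in N22 control 0%. The part of the calling rate in these numbers was not tested. The interval was rich in CHH and poor in CHG among its listed mCs. CHH made up 32.0 to 37.0% of the mCs of a library, against 23.2 to 29.3% in the rest of chromosome 1, and CHG 19.4 to 22.0%, against 25.9 to 28.8%. In number, CHH mCs were 22883 in IR64 control, beside a median of 22657 in the 19 other 2 Mb windows of the chromosome. They were 22495 in N22 control (median 22395) and 26692 in Pokkali control (median 24512).

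Across all 7 libraries 28881 mCs of the interval were listed in common, of which 16742 were CG, 5711 CHG and 6428 CHH. A pair of libraries of the same cultivar shared 75.8 to 77.2% of the CG mCs listed in either, and the IR64 and N22 pairs shared 60.5 to 64.5%. In the rest of chromosome 1 the same pairings shared 71.5 to 74.1% and 50.8 to 56.5%. The CG positions listed in this interval therefore overlapped more between IR64 and N22 than those elsewhere on the chromosome. This was so for every pairing of cultivars. N22 and Pokkali pairs shared 61.8 to 65.4%, against 53.7 to 58.3%, and IR64 and Pokkali pairs 63.7 to 66.6%, against 59.5 to 62.7%.

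A pair of places in the interval stood apart in read depth in all 7 libraries, and most of the bins that changed under desiccation in IR64 lay in them. When the interval was divided into 200 tiles of 10 kb, 3 tiles had a mean depth of at least 2 times the median tile in every library. These were positions 39110001 to 39120000 (3.69 to 6.22 times the median), 39120001 to 39130000 (3.31 to 5.02 times) and 39350001 to 39360000 (2.35 to 4.71 times), and they were picked out after their values were seen. The tile starting 360 kb into the interval passed the threshold in the N22 and Pokkali libraries (2.27 to 2.67 times) but not in the IR64 libraries (1.71 to 1.89 times) and was not among them. The 3 tiles held only 3.68 to 4.03% of the listed mCs of the interval but 11.8% (Pokkali control) to 18.0% (IR64 desiccation) of the reads on them. By the same rule, with the median taken over the tiles of the chromosome, 7 tiles stood out in the rest of chromosome 1.

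**Figure D1:**
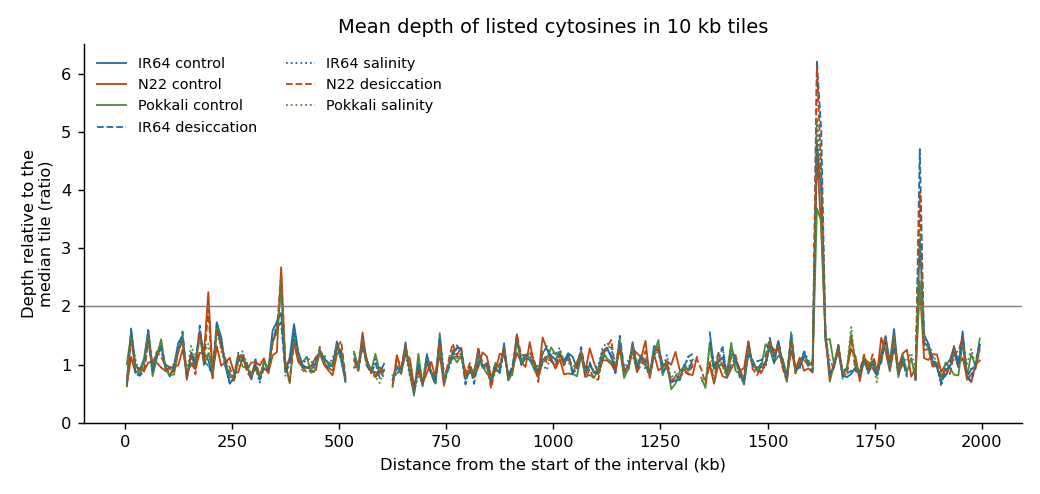
Mean depth of listed cytosines in 10 kb tiles along the interval (x axis, distance from its start in kb), as a ratio to the median tile of the same library (y axis). Each line is 1 library, coloured by cultivar, and the grey line marks a ratio of 2. The 2 neighbouring tiles near 1600 kb rise to 6.22 times the median and the tile at 1850 kb to 4.71 times.

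In the tiles of high depth the methylation level, the share of methylated reads summed over cytosines, was low. Over the 901 CG sites listed in all 7 libraries there, the IR64 libraries had levels of 17.6% (control), 14.3% (desiccation) and 15.8% (salinity). N22 had 26.8% (control) and 15.7% (desiccation), and Pokkali 20.2% (control) and 19.0% (salinity). In the rest of the interval the CG level over 15841 common sites lay between 85.3 and 89.7%. CHG behaved alike, with 15.0 to 29.5% in the tiles and 70.0 to 75.5% outside them. Over the summed reads of the tiles, N22 control was the highest library in CG and CHG, and IR64 desiccation the lowest. In the tile from 39350001 alone, IR64 control was the highest (23.3% in CG) and N22 desiccation the lowest (14.2%). As a mean over single cytosines of the tiles, Pokkali control was the highest in CG (63.4%), above N22 control (59.7%). By that mean N22 control was the highest in CHG (55.1%), and IR64 desiccation the lowest in both contexts (51.6 and 46.1%).

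The lowest levels in the tiles were those of a minority of very deeply read cytosines. In N22 control 262 of the 1533 common mCs of the tiles had 100 reads or more, and their level was 9.74%. The other 1271 had a level of 56.7%, which was also below the 80.5% of the common mCs outside the tiles. Over the 7 libraries the mCs under 100 reads had levels of 44.1 to 56.7% in the tiles, against 77.1 to 80.5% for all common mCs outside. Outside the tiles only 40 of 27348 common mCs of that library reached 100 reads. The number of such deep cytosines in the tiles was 321 in N22 desiccation, and it was 285 in IR64 control and 328 in IR64 desiccation. A level over summed reads and a mean over single cytosines therefore gave different pictures of the interval, and both are given below.

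**Figure D2:**
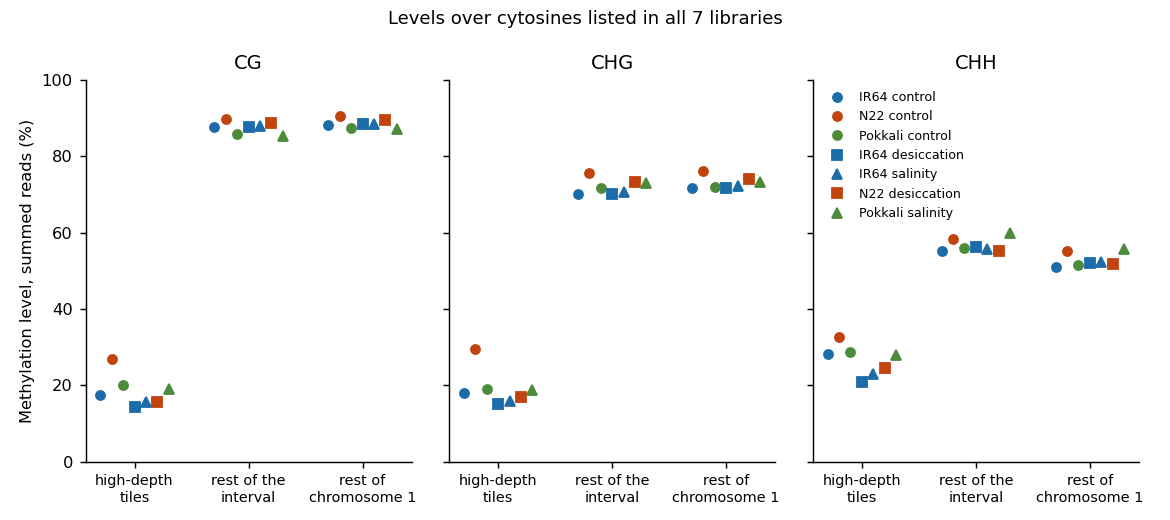
Methylation level over summed reads (y axis, %) at cytosines listed in all 7 libraries, by context (panels) and place (x axis). Each point is 1 library, with colour for the cultivar and shape for the treatment. CG levels are 14.3 to 26.8% in the 3 high-depth tiles and 85.3 to 89.7% in the rest of the interval.

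Cultivar differences were then asked of single 100 bp bins. A bin with at least 3 cytosines listed in both libraries was tested by a two-sided Fisher's exact test on the summed methylated and unmethylated reads, and became a differentially methylated region (DMR) where the 2 levels were 20 points or more apart and the p, adjusted by Benjamini-Hochberg over the tested bins of all 12 chromosomes, did not exceed 0.01. Reads were counted at each cytosine they cover, so that these p-values are too small. Between N22 control and IR64 control 184 of 4341 tested bins of the interval were DMRs, which is 4.24%, against 4.05% in the rest of chromosome 1 and 3.79% in the genome. N22 was higher in 149 of them (genome 3.18% of tested bins) and lower in 35 (genome 0.615%). Between Pokkali control and IR64 control 227 of 4622 bins were DMRs (4.91%, against 4.76% in the rest of chromosome 1 and 4.47% in the genome). Here the direction was the other way, with Pokkali higher in 65 (genome 1.67%) and lower in 162 (genome 2.81%). These shares were close to the background, and among the 19 other 2 Mb windows of the chromosome 9 had a higher share for N22 and 7 a higher share for Pokkali. The 2 comparisons share the IR64 control library.

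The context of the DMRs was compared next. Of the 227 Pokkali DMRs 157 (69.2%) held CG sites alone, against 28.0% of all bins tested. Of the 184 N22 DMRs 73 (39.7%) held CG sites alone, against 28.2% of all bins tested. CHH sites were present in 61 N22 DMRs (33.2%) and in 15.0% of the Pokkali DMRs, both less than the 51.4 and 52.8% of all tested bins. Between the stressed libraries the shares with CHH sites were close to each other, 24.4% for N22 and 23.2% for Pokkali. When only CG sites were used, 196 bins differed for Pokkali (6.10% of tested bins), beside 4.81% of tested bins called in the genome. Of the 196, 141 were lower, beside 2.87% of tested bins called lower in the genome. When only CHH sites were used, 24 differed for Pokkali (1.52% of tested bins) and 49 for N22 (3.45%), beside 2.09 and 3.84% called in the genome. N22 was higher in 38 of its 49 (genome 3.21%). Between the stressed libraries the order was the other way, with 28 for N22 (1.98%, genome 2.23%) and 41 for Pokkali (2.96%, genome 2.46%). Of these CHH shares, only that of Pokkali between the salinity libraries was above its genome share.

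The stressed seedlings gave a second look at the same cultivars in separate libraries. Of the 184 N22 DMRs 168 could be tested between N22 desiccation and IR64 desiccation, and 158 of these (94.0%, 95% Wilson interval 89.4 to 96.7) had the same sign, against 60.4% of all 4052 bins tested in both pairs. In 79 (47.0%) the desiccation pair also passed as a DMR of that sign, against 3.38% of all bins tested in both pairs. In 1 it passed with the opposite sign. Of 186 Pokkali DMRs tested between the salinity libraries, 175 (94.1%, 89.7 to 96.7) kept their sign, against 59.7% over all bins. In 107 (57.5%) the salinity pair was a DMR of that sign again, against 3.99% of all bins tested in both pairs. The rest of chromosome 1 behaved alike, with 94.3% of its N22 DMRs and 94.3% of its Pokkali DMRs keeping their sign. There 50.3 and 51.8% were DMRs of that sign again. The intervals cover counting error only. Between the desiccation libraries 168 of 4420 bins were DMRs in all (genome 3.36%), with 121 higher in N22 (genome 2.46%) and 47 lower (genome 0.902%). Between the salinity libraries 198 of 4323 were (4.58%, genome 3.58%), with 61 higher in Pokkali (genome 1.4%) and 137 lower (genome 2.18%).

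**Figure D3:**
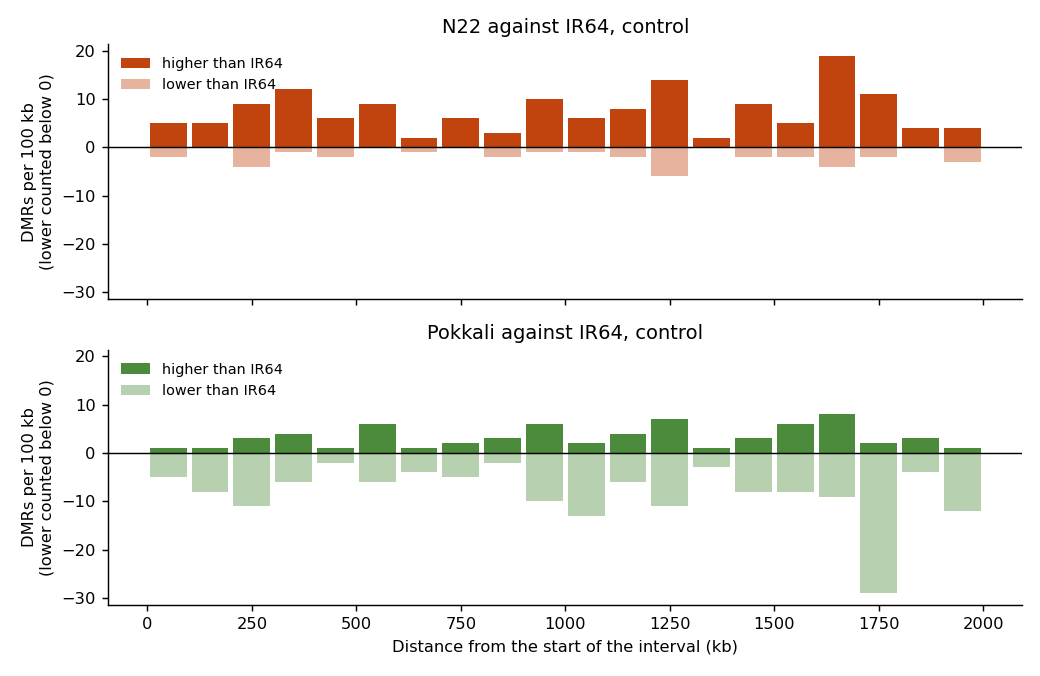
Number of DMRs per 100 kb of the interval between control libraries (y axis, bins lower than IR64 counted below 0) by distance from the start of the interval in kb (x axis). The bar with most N22 DMRs starts at 1600 kb with 19 higher and 4 lower bins, and the bar with most Pokkali DMRs starts at 1700 kb with 2 higher and 29 lower bins.

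DMRs lay all along the interval. The 100 kb from 39100001 had most N22 DMRs, 23 of 310 tested bins, of which 19 were higher in N22. However, 11 of these 23 lay in the tiles of high depth, and without the tiles the window had 12 and the 100 kb from 38700001 had most, with 20. Of 175 tested bins of the tiles 11 were N22 DMRs (6.29%), against 4.15% in the rest of the interval. The tiles held 9 of the 227 Pokkali DMRs. These were 4.84% of 186 tested bins there, close to the 4.91% in the rest of the interval. The 100 kb from 39200001 had most Pokkali DMRs, 31 of 251 tested bins or 12.4%, and Pokkali was lower in 29 of them. In the salinity libraries the same window held 29 DMRs between Pokkali and IR64.

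Bins were named only where both libraries had 50 reads or more and the desiccation pair differed by 20 points or more with the same sign. Among these, the largest N22 excess was at 39293301 to 39293400, where 4 CHG sites were methylated in 93.5% of 77 reads in N22 control and 17.6% of 85 reads in IR64 control (difference 75.9 points, adjusted p = 7.74e-22, Fisher's exact test). Over all listed cytosines of that bin the level was 82.0 and 90.1% in the N22 control and desiccation libraries. It was 17.6, 23.5 and 33.3% in IR64 control, desiccation and salinity, where salinity listed 1 cytosine only, and 34.4 and 43.9% in Pokkali control and salinity. N22 thus stood above the other 5 libraries.

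At 38560601 to 38560700, with 3 CG and 4 CHG sites, the level was 93.2% in N22 control and 28.2% in IR64 control. Over all listed cytosines of that bin, N22 control was at 77.2% and N22 desiccation at 76.8%, and the libraries of the other cultivars at 24.9 to 42.2%. At 38077001 to 38077100 the level was 92.6% in N22 control (89.3% over its listed cytosines) and 45.3% in IR64 control. It was 14.4% over the cytosines listed in Pokkali control, so that the 3 cultivars were apart. At 38787401 to 38787500 it was 95.2% in N22 control and 48.5% in IR64 control. There Pokkali control, with 84.1% over its listed cytosines, was near N22 control (88.5% over its own), so that IR64 was the cultivar that differed.

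The bins lower in N22 were mostly CG sites. At 38954501 to 38954600 all 6 sites were CG, with 37.5% in N22 control and 90.4% in IR64 control (difference -52.9 points, adjusted p = 3.13e-14, Fisher's exact test). Pokkali control was between them with 55.6%, and N22 desiccation was lowest with 22.6%. At 38329501 to 38329600, with 4 CG sites, IR64 was high in its 3 libraries (93.7 to 96.2%) and the other 4 libraries were at 45.9 to 58.1%. At 38638901 to 38639000 the level was 41.9% in N22 control and 83.1% in IR64 control, and at 38705501 to 38705600 39.6 and 80.7%. In this last bin no cytosine was listed in either Pokkali library.

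Of the bins named for Pokkali, the one at 38378601 to 38378700 set IR64 apart. Its 4 CG sites at positions 38378628, 38378632, 38378637 and 38378638 were methylated in 15.0% of 107 reads in IR64 control and 88.2% of 68 reads in Pokkali control (adjusted p = 1.74e-20, Fisher's exact test). Single sites were at or below 20% in IR64 control and ranged from 85.0 to 93.3% in Pokkali control. Over all listed cytosines of the bin, IR64 desiccation and IR64 salinity were at 28.4 and 20.3%. N22 control and desiccation were at 88.6 and 85.1%, and Pokkali control and salinity at 77.2 and 72.7%.

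At 38201701 to 38201800 Pokkali control had 63.3% and IR64 control 16.0%, but this bin was not a DMR between the salinity libraries (difference 28.8 points). Both bins named as lower in Pokkali held CG sites alone. At 37777801 to 37777900 the level was 15.9% in Pokkali control and 89.7% in IR64 control. Over listed cytosines it was 18.4% in Pokkali salinity, 76.3% in IR64 control and 96.0% in N22 control, so that Pokkali alone was low. At 37783601 to 37783700 it was 16.0% in Pokkali control and 87.9% in IR64 control. N22 was low there too, with 35.9 and 21.3% in its 2 libraries over 3 and 5 listed cytosines.

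**Figure D4:**
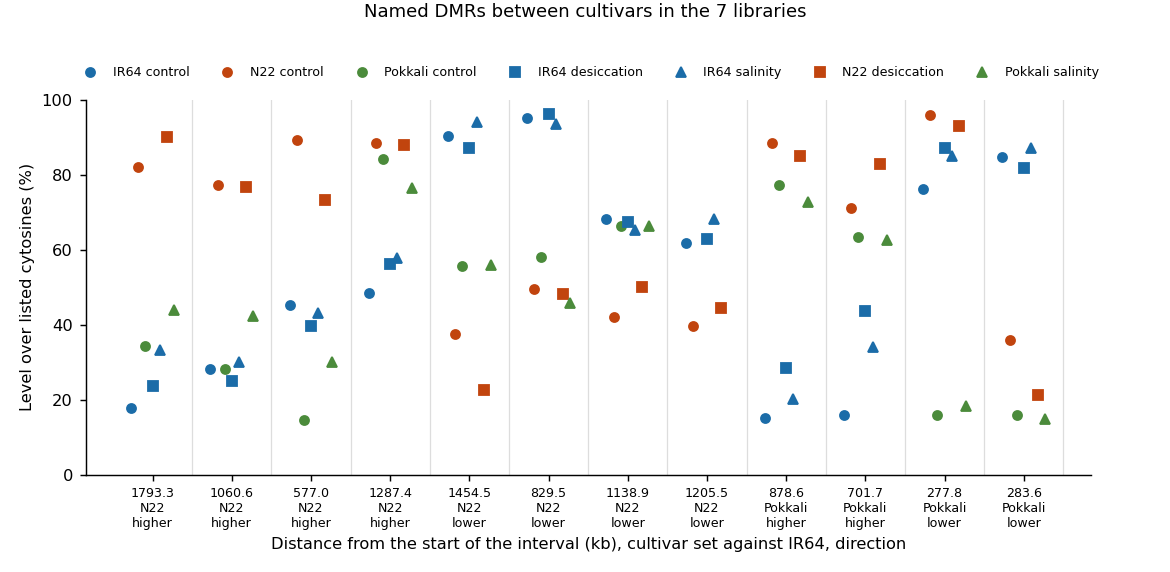
Methylation level over the listed cytosines (y axis, %) of the 12 bins named between control libraries, placed by distance from the start of the interval in kb with the cultivar set against IR64 and the direction (x axis). Each point is 1 library, with colour for the cultivar and shape for the treatment. The bins were named only where the stressed pair differed in the same direction. An example is the bin named as higher in Pokkali with the largest difference, where the 3 IR64 libraries are at 15.0 to 28.4% and the other 4 at 72.7 to 88.6%.

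A stricter description asked which bins separated a whole cultivar from the rest. Over 3303 bins with at least 3 cytosines listed in all 7 libraries, a level was taken as specific to a cultivar when each of its libraries lay at least 20 points above, or below, each library of the others. Pokkali had 52 bins that were lower and 1 that was higher, or 1.57 and 0.0303% of the bins, beside 1.18 and 0.0446% over chromosome 1. IR64 had 12 lower and 5 higher (0.363 and 0.151%, beside 0.453 and 0.0458%). N22 had 6 lower and 10 higher (0.182 and 0.303%, beside 0.239 and 0.271%). The widest gap for IR64 was the bin at 38378601, where its highest library lay 50.9 points below the lowest of the others. The widest for N22 was the bin at 38560601 (50.5 points above) and the widest for Pokkali the bin at 37777801 (66.5 points below). Bins were scarce for every cultivar, and Pokkali's were nearly all losses relative to the others.

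Some bins were listed in 1 cultivar only, with at least 3 mCs in each of its libraries and 0 in each library of the other cultivars. Such a bin may lack methylation, reads or the sequence itself in the other cultivars, and these cannot be told apart in the files. The interval held 130 bins listed in Pokkali only (1.35% of its listed bins, beside 1.48% over chromosome 1), 87 in N22 only (0.904%, beside 3.44%) and 35 in IR64 only (0.364%, beside 0.575%). N22 thus had fewer bins of its own here than along the chromosome. In none of these bins were both neighbouring bins listed in all 7 libraries.

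The Pokkali bins were concentrated in 1 place. Of the 130, 87 lay in the 100 kb from 39300001, and the 3 longest runs were 28 bins at 39336101 to 39339400, 20 bins at 39332601 to 39335500 and 18 bins at 39329701 to 39331900. In the longest, Pokkali control listed 307 mCs (71 CG, 169 CHG and 67 CHH) at a level of 66.8% and Pokkali salinity 284 at 70.4%. The 20-bin run held 315 and 223 mCs in these 2 libraries, and the 18-bin run 318 and 267. All 3 contexts were present in each run.

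Around these runs lay bins that both Pokkali and N22 listed and IR64 did not, which were picked out after their values were seen. Over the whole stretch from 39325601 to 39342000 (16.4 kb), Pokkali control listed 1641 mCs and Pokkali salinity 1421. N22 control listed 484 and N22 desiccation 410. The 3 IR64 libraries listed 63, 44 and 46. A second stretch of this kind ran from 37881301 to 37887100 (5.80 kb), where N22 control listed 1035 mCs and Pokkali control 536, at levels of 80.9 and 75.1%, and the 3 IR64 libraries 12, 39 and 26. N22 desiccation listed 780 there and Pokkali salinity 740. The low numbers of IR64 follow from the choice of these stretches.

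The runs of N22 and IR64 were short. N22 alone listed 7 bins at 38092101 to 38092800 (92 mCs in control at 60.6%, 86 in desiccation at 56.4%) and 6 bins at 37910101 to 37910700 (98 mCs at 66.0% and 88 at 59.8%). Another N22 run of 4 bins, at 39116101 to 39116500, lay inside a tile of high depth, with 68 and 71 mCs at 70.6 and 71.4%. IR64 alone listed 4 bins at 39444401 to 39444800, with 54 mCs in control at 57.9%, 80 in desiccation at 56.6% and 66 in salinity at 60.6%. Its next runs, at 37832201 to 37832400 and 38755901 to 38756400, had 2 bins each. CG sites made up 71.3% of the mCs of the IR64 bins in IR64 control, 51.1% of those of the N22 bins in N22 control and 40.8% of those of the Pokkali bins in Pokkali control.

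Desiccation was compared with control within N22 and within IR64. The number of listed mCs moved in opposite directions. It changed by 8.42% under desiccation in IR64 and by -9.12% in N22, beside 10.5% and -11.2% in the rest of chromosome 1. In IR64 the change was 9.14% in CG, 13.7% in CHG and 4.76% in CHH. In N22 it was -9.74%, -13.2% and -5.39%. The mean depth moved little in IR64, from 15.6 to 15.4 reads, and was 16.1 and 17.2 reads in N22 control and desiccation, and the part of depth and of the calling threshold in these numbers was not tested.

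Over cytosines listed in both libraries of a pair, the CG level of the interval changed by -3.33 points in IR64 and -6.50 points in N22 under desiccation. The CHG level changed by -3.50 and -9.74 points. In the 19 other 2 Mb windows of chromosome 1 the CG change was between -0.935 and 0.572 points in IR64 and between -2.77 and -0.765 points in N22, so the interval lay below all of them in both cultivars, and the same held for CHG. This position rested on the 3 tiles of high depth. Without them the CG change was 0.118 points in IR64 (95% Newcombe interval -0.0432 to 0.280) and -1.75 points in N22 (-1.89 to -1.61), within the range of the other windows. The CHG change without them was 0.00168 points in IR64 and -2.78 points in N22. As a mean over single cytosines of the whole interval, the CG change was -0.225 points in IR64 and -0.749 points in N22, and the CHG change -0.575 and -1.47 points.

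**Figure D5:**
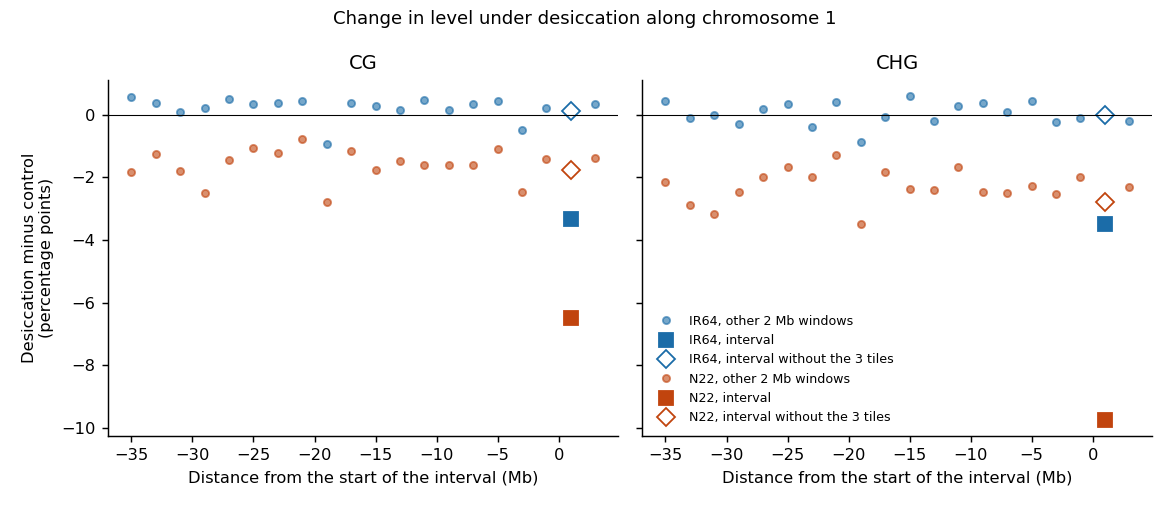
Desiccation minus control level in percentage points (y axis) for CG and CHG (panels) in 2 Mb windows of chromosome 1, by distance from the start of the interval in Mb (x axis). Circles are the 19 other windows, squares the interval and open diamonds the interval without its 3 tiles of high depth. The squares lie below all circles of their cultivar, at -3.33 and -6.50 points for CG, and the diamonds lie among the circles.

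Inside the tiles, the CG level over summed reads of cytosines shared by the pair was 15.1% in IR64 desiccation and 18.6% in IR64 control. It was 17.0% in N22 desiccation and 28.4% in N22 control. As a mean over the single CG sites listed in all 7 libraries, it was 51.6% in IR64 desiccation and 58.5% in IR64 control. In N22 this mean was 56.8% in desiccation and 59.7% in control. The fall was thus larger in N22 over summed reads, but larger in IR64 as a mean over single sites. The relative depth of each tile was higher in desiccation than in control in both cultivars. In the tile from 39110001 the depth was 4.84 times the median in IR64 control and 6.22 times in IR64 desiccation, and 4.66 and 6.12 times in N22. The part of depth in the change was not tested. In the 7 other tiles of high depth on chromosome 1, the CG change over summed reads was -5.42 points in IR64 and -10.4 points in N22, beside -3.53 and -11.3 points in the tiles of the interval. Per tile it had a median of 0.680 points in IR64 (from -3.67 to 2.44) and -1.33 points in N22 (from -11.2 to -0.617). The IR64 value over summed reads thus lay below the lowest of its 7 tiles, so it cannot stand for a change within tiles. The N22 value lay within the range of its tiles, far from their median.

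CHH, with few sites in these tiles, depended less on them. Its level changed by 0.769 points in IR64 and by -3.35 points in N22 under desiccation. Without the tiles the changes were 1.01 and -3.05 points, and as a mean over single cytosines -2.88 points in N22. The rest of chromosome 1 changed by 0.978 and -2.13 points. With the tiles, the N22 fall was larger than in 18 of the 19 other windows, whose median change was -2.88 points. No rank was taken without the tiles.

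Few bins changed under desiccation. In IR64 15 of 4726 tested bins were DMRs (0.317%, against 0.0677% in the rest of chromosome 1 and 0.0626% in the genome), 2 higher and 13 lower (genome 0.0379 and 0.0247%). In N22 11 of 4860 were DMRs (0.226%, against 0.101% and 0.0947%), and all 11 were lower (genome 0.0878%, and 0.0069% higher). Both shares exceeded those of the 19 other windows of the chromosome. Of the IR64 DMRs 12 lay in the tiles of high depth, all lower (6.63% of 181 tested bins there). Of the N22 DMRs 5 did (2.67% of 187). In the rest of the interval 3 of 4545 bins remained in IR64 (0.0660%) and 6 of 4673 in N22 (0.128%), near the 0.0635 and 0.101% of the rest of chromosome 1 without its own tiles of high depth. Leaving out cytosines above the 99th depth percentile gave 15 DMRs in IR64 and 10 in N22. Of 4059 bins tested in both cultivars, 14 were DMRs in IR64, 11 in N22 and 0 in both, as in the rest of chromosome 1, where 61 and 107 of 97086 were DMRs and 0 in both.

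Outside the tiles, the clearest desiccation bin was at 37967701 to 37967800. Its 23 shared cytosines (20 of them CHH) were methylated in 86.0% of 200 reads in IR64 desiccation and 37.4% of 198 reads in IR64 control (adjusted p = 5.18e-20, Fisher's exact test). IR64 salinity was also above control there (64.4 against 37.9% over 25 shared cytosines, adjusted p = 1.11e-05, Fisher's exact test), a comparison that uses the same control library. N22 was at 69.3% in control and 67.1% in desiccation over its listed cytosines, and Pokkali at 51.5% in control and 62.0% in salinity. The IR64 control library was thus the lowest of the 7.

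The second IR64 bin that rose, at 38639001 to 38639100, held 33 CHH sites with 79.4% in desiccation and 56.6% in control. In this bin IR64 salinity (74.2% over listed cytosines), N22 desiccation (78.6%) and Pokkali salinity (89.8%) were also above their controls (56.6, 65.8 and 67.6%). The 2 named IR64 bins that fell lay in the tile from 39110001. At 39110501 to 39110600 the level was 28.3% of 166 reads in desiccation and 75.3% of 170 reads in control. At 39113801 to 39113900 it was 24.3% of 559 reads in desiccation and 59.5% of 309 reads in control.

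In N22 the named bins lay outside the tiles and were rich in CHH. At 38138301 to 38138400 (2 CG, 1 CHG and 6 CHH sites) the level was 38.5% of 205 reads in desiccation and 71.6% of 88 reads in control. At 38033601 to 38033700 (2 CG and 13 CHH sites) it was 44.8 and 73.6%. IR64 control and desiccation were at 65.2 and 67.5% over listed cytosines in the latter bin. In the former bin they were at 53.9 and 42.4%, so that IR64 was lower in desiccation there too. N22 control was the highest of the 7 libraries in that bin, and the others were at 37.6 to 58.2%. With CHH sites alone, 17 of 1506 N22 bins were DMRs, 16 of them lower (1.13%, beside 0.758% called and 0.693% called lower in the genome). In IR64 3 of 1562 were, all higher (0.192%, beside 0.389% called and 0.262% called higher).

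Salinity gave a contrasting picture in Pokkali. Of 4955 tested bins 31 were DMRs between Pokkali salinity and control (0.626%, against 0.379% in the rest of chromosome 1 and 0.287% in the genome), 26 higher and 5 lower (genome 0.237 and 0.0501%). CHH sites were present in 30 of the 31, against 51.6% of all tested bins. With CHH sites alone 43 of 1652 bins were DMRs and all were higher (2.60%, beside 2.31% called and 2.24% called higher in the genome). The CHH level of the interval was 4.77 points above control, beside 4.88 points in the rest of chromosome 1. At 38728101 to 38728200 the level of 10 CHH sites was 77.0% in salinity and 35.0% in control, and at 37560301 to 37560400 that of 4 CHH sites was 64.7 and 23.6%. All 5 lower bins lay in the tiles of high depth, among them 39117801 to 39117900 (43.5 against 72.8%) and 39128201 to 39128300 (51.6 against 77.2%).

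In IR64 under salinity 12 of 4690 bins were DMRs (0.256%, against 0.0595% in the rest of chromosome 1 and 0.0526% in the genome), 5 higher and 7 lower (genome 0.033 and 0.0196%). The tiles of high depth held 6 of the 7 lower ones (3.30% of 182 tested bins, against 0.133% called in the rest of the interval). The exception was at 37651101 to 37651200, with 15 CHH sites of 16, at 55.6% in salinity and 88.5% in control. The bin at 39117801 to 39117900, which was lower in Pokkali salinity, was lower in IR64 salinity as well (30.2 against 56.7%), and the 2 comparisons share no library. Apart from the bin at 37967701 given above, the named bin that was higher in IR64 salinity was at 38703601 to 38703700, where 25 CHH sites had 52.1% in salinity and 27.2% in control.

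Over shared cytosines, the excess of N22 control above IR64 control was 4.0 points for CG, 9.89 for CHG and 3.17 for CHH, and Pokkali control differed from IR64 control by -0.930, 2.61 and -0.324 points. The CHG excess of N22 was larger than in all 19 other windows (3.44 to 7.77 points), and without the tiles of high depth it was 5.57 points. The CHG difference of Pokkali was also above that of all 19 other windows, between control (highest 0.582 points) and between salinity libraries (3.58 points, highest 2.15), and without the tiles it was 0.857 and 2.19 points. Between the desiccation libraries N22 was above IR64 by 1.29 points in CG and 3.64 in CHG, and differed by -0.508 points in CHH. The cultivar excess of N22 was thus smaller between stressed than between control libraries in every context, also without the tiles of high depth (2.63 and 1.33 points in CG, 5.57 and 3.48 in CHG, 3.14 and -0.566 in CHH for control and desiccation), and this difference was not tested.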

How the data were processed

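Per the study's methods, the authors aligned bisulphite reads to the rice genome (MSU version 7) with Bismark, kept uniquely aligned reads without clonal copies, and called methylated cytosines by a binomial test against the conversion error rate at p = 0.001 and a depth of at least 5. How the stressed libraries were pooled is not stated. The deposited files give for each listed cytosine its read depth (a count) and its methylation level (percent of reads), from which methylated reads were recovered. Mean genome-wide depth was 14.2 to 19.0 reads. Bins of 100 bp were tested with Fisher's exact test (numba 0.67.0, Python 3.11.15), as described above, which compares libraries and not conditions. Code was tested on simulated data. Positions listed with different contexts in different libraries (10 in the interval) were not treated as shared. Bins were named by size of difference among DMRs with at least 50 reads per library and, between cultivars, at least 20 points of the same sign in the stressed pair, 4 per direction for N22 and 2 otherwise, and runs as the 3 with most bins per cultivar. The interval, its gene and window lists and these rules were chosen with earlier results of these data known. No annotation of this build was used, so genes of the interval (SD1, OsMADS2, OsNAC6, OsABF1) were not analysed here. Alternatives were another depth minimum, a common calling error rate of 1%, single contexts, other bin rules, cytosines listed in either library, site means and leaving out libraries or tiles of high depth.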

Additional observations from a re-analysis of the deposited data

Results flagged for a closer look

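Some pairs of effects within the interval had opposite signs in 2 cultivars under the same stress. The differences between the cultivars were not tested, since each group was 1 library. Under desiccation the number of listed mCs changed by 9.14% in IR64 and -9.74% in N22 in CG, by 13.7% and -13.2% in CHG, and by 4.76% and -5.39% in CHH. The CHH level over shared cytosines changed by 0.769 points in IR64 and -3.35 points in N22. Under salinity the number of listed mCs changed by 5.13% in IR64 and -8.31% in Pokkali in CG, and by 5.87% and -9.16% in CHG. In Pokkali the mean depth fell from 18.2 to 14.9 reads and its part in the change was not tested.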

How the results depend on the processing

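No paired analysis was possible because each group was 1 library, and for the same reason no group could lose a replicate in a test. DMR counts of the interval are given in the order N22/IR64 control, Pokkali/IR64 control, N22/IR64 desiccation, Pokkali/IR64 salinity, then IR64 desiccation, N22 desiccation, IR64 salinity and Pokkali salinity against control. CG sites alone gave 101 in the first and 4, 5 and 5 in the last 3. CHG sites alone gave 38, 29, 35, 22, 2, 0, 0 and 1, and CHH sites alone 49, 24, 28, 41, 3, 17 and 6 in the first 7. Cytosines listed in either library gave 314, 287, 83, 98, 66 and 143 (both N22/IR64 pairs and the last 4). At least 5 shared cytosines gave 119, 117, 104 and 111 in the first 4 (3.71, 3.44, 3.20 and 3.54% of tested bins). A depth of at least 10 gave 7 for N22 desiccation (0.203% of tested bins) and 18 for Pokkali salinity (0.514%). Leaving out the tiles of high depth, an alternative chosen after seeing the data, gave 3, 6 and 6 for IR64 desiccation, N22 desiccation and IR64 salinity.

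Level differences are in points. For N22/IR64 control, CG was 3.74 re-called at an error rate of 1%, 1.68 as a mean of single cytosines and 2.63 without the tiles. CHG was 10.6 at depth 10, 8.88 re-called, 3.52 as a site mean and 5.57 without the tiles, and CHH 2.42 re-called and 3.99 as a site mean. For N22/IR64 desiccation, CG was 1.10 re-called, CHG 4.23 at depth 10 and 2.83 as a site mean, and CHH -1.03 re-called and, with the sign turned, 0.378 as a site mean. For IR64 desiccation, CG was -4.08 at depth 10, -3.08 re-called, -0.225 as a site mean and 0.118 without the tiles. CHG was -4.10, -2.91, -0.575 and 0.00168 in the same order. For N22 desiccation, CG was -6.88 at depth 10, -0.749 as a site mean and -1.75 without the tiles. CHG was -10.3 at depth 10, -9.35 re-called, -1.47 as a site mean and -2.78 without the tiles, and CHH -3.01 re-called and -2.88 as a site mean. Except where tiles or cytosines were left out, the cause of these shifts was not tested.

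Bins with at least 5 listed mCs in IR64 only numbered 20, and 0 bins of any cultivar had both neighbours listed in all 7 libraries. Leaving out 1 library in turn, chosen after seeing the data, gave 36 to 59 bins for IR64 and 90 to 150 for N22, the highest without IR64 control and without N22 desiccation. The other 95 alternatives moved a count by at most 1.5 times or a level by less than its counting interval. The files hold no unmethylated cytosines, so depth limits which positions could be compared at all.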
